A study of Homo sapiens with 6 samples.

Results

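The genes of glycolysis and of the response to low oxygen were examined in RNA-Seq data from DU145, an established human prostate cancer line of metastatic, castration-resistant origin. They were chosen by name, and all 44 genes were found among the 27381 genes of the deposited table. They comprised 22 glycolytic enzymes and transporters, 16 other targets of the hypoxia-inducible factors (HIFs) and 6 regulators of HIF. By GEO's labels there were 6 libraries in 3 genotypes of 2, namely a scramble control (Scr), a CD24 knockout (CD24 KO) and an RCC2 knockout (RCC2 KO). The knockout cells were made with Cas9 and sgRNAs on a GFP plasmid (pX458), the control cells with Cas9 and an sgRNA that has no target, and both were sorted for GFP and grown as clones, so a difference between conditions is also a difference between clones. All cells were DU145, and the labels name no treatment or oxygen level. The table holds 1 value per gene and condition in FPKM, the fragments of a gene scaled to its length and to the library. The columns do not have equal sums, at 451272 FPKM for Scr, 388764 for CD24 KO and 447005 for RCC2 KO. Differences between conditions therefore depend in part on how the columns are scaled. With 1 column for 2 libraries, no SD, test or p-value could be obtained for any difference below, and 3 FPKM values in a row always stand in the order Scr, CD24 KO, RCC2 KO. In such bulk RNA, fewer cells expressing a gene and less of its RNA per cell cannot be told apart. The RCC2 KO column carries the label of the first RCC2 KO library, which is also the stem of the second, and may hold 1 library or both.

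Glycolysis converts glucose to pyruvate in the cytosol, and many tumor cells convert much of that pyruvate to lactate even when oxygen is present. Glucose enters through GLUT transporters, is phosphorylated by hexokinase, is committed to the pathway by phosphofructokinase and leaves as lactate through lactate dehydrogenase and a monocarboxylate transporter. HIF is a dimer of an oxygen-labile α subunit, encoded by HIF1A or EPAS1, and a stable β subunit, encoded by ARNT. With oxygen, prolyl hydroxylases of the EGLN family mark the α subunit, the VHL ligase binds it and it is degraded, so the α subunits are controlled mainly as proteins and less as RNA. Stabilized HIF binds a short element with the core ACGTG or GCGTG and raises most of the glycolytic genes together with genes for pH, angiogenesis, collagen processing and mitophagy.

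The promoters of 6 members are shown because they hold the HIF core letters and belong to genes that differed in both directions in the libraries labelled CD24 KO. GAPDH, PGK1, GPI, BNIP3 and ANGPTL4 were at least 2-fold lower there than in Scr, and BHLHE40 was higher, by less than 2-fold. Each run is the 250 bases before the 1 RefSeq start held for the gene in GRCh38.p14, 5′ to 3′ on the strand of the gene. That start need not be the main start of the gene, and the start used in these cells was not examined. Capitals mark ACGTG or GCGTG read on either strand.
GAPDH, chr12:6535014-6535263, plus strand: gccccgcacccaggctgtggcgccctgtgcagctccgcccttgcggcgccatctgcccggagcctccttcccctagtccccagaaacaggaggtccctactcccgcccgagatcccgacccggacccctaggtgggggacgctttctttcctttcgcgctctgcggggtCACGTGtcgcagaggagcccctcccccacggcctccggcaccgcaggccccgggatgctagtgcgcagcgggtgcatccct
PGK1, chrX:78103998-78104247, plus strand: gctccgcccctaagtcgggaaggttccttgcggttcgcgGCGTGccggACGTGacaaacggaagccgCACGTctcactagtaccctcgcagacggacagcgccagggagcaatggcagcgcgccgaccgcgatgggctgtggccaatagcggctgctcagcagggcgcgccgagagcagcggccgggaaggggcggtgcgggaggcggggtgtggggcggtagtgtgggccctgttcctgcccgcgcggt
GPI, chr19:34364742-34364991, plus strand: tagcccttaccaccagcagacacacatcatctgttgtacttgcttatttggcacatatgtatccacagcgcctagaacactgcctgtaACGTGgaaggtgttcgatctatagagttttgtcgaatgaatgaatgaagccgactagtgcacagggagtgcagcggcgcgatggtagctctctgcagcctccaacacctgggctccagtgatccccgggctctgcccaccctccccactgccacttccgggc
BNIP3, chr10:131981924-131982173, minus strand: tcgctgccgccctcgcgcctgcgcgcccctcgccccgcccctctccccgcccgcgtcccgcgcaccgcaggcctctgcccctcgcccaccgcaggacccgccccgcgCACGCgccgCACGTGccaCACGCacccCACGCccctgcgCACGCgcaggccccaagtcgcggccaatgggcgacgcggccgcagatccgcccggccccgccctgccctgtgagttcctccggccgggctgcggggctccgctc
ANGPTL4, chr19:8363905-8364154, plus strand: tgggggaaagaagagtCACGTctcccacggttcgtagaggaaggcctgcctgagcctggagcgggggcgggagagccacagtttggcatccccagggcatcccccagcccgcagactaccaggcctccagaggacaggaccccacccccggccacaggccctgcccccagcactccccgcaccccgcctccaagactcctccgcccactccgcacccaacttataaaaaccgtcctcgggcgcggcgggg
BHLHE40, chr3:4979187-4979436, plus strand: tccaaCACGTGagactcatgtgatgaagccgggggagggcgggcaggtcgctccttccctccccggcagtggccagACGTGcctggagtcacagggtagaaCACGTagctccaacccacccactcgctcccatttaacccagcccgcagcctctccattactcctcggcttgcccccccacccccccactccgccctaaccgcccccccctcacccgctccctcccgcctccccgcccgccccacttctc
With positions counted back from the start held for each gene, the element lay at -81 to -76 in GAPDH and -134 to -129 in BNIP3. ANGPTL4 had its 1 match at -234 to -230 and GPI at -162 to -158. In GAPDH and BNIP3 each ACGTG match lay within the palindrome CACGTG, which also forms the E-box read by other factors and matches on both strands. BHLHE40 had the palindrome at -245 to -240 and further ACGTG matches at -174 to -170 and -149 to -145. Promoters were found for 38 of the 44 members, in 68 entries because several genes have more than 1 start. ACGTG was present in 36.8% of these entries, against 22.4% of 14174 entries of all genes compared and 18.5% of all 35116 entries. GCGTG was present in 33.8% of the member entries, against 44% and 32.2%. By gene, ACGTG was found in at least 1 entry for 9 of the 11 members at least 2-fold lower in the libraries labelled CD24 KO. It was found for 13 of the 27 other members with a promoter, and for 29.1% of 9725 genes compared. The 27 include ALDOC, CA9 and ANKRD37, which each held ACGTG but were too low to be among the genes compared. They also include 5 HIF regulators, of which 1 held ACGTG, so the 27 are not all glycolytic genes or HIF targets. GCGTG had the reverse split, 4 of 11 against 15 of 27. With either core the shares were alike, 9 of 11 (81.8%) and 22 of 27 (81.5%), against 65.8% of genes compared. SLC2A1 and PGAM1 were the 2 lower members without either core. These matches describe letters in a window and no binding was measured.

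The RNA of the knocked-out genes was not lower in their own columns. CD24 was at 93.2, 309 and 214 FPKM, and RCC2 at 37.8, 14.2 and 41.8 FPKM. RCC2 was lowest in the column labelled CD24 KO. A Cas9 knockout need not lower the RNA of its gene, and the study's methods checked the clones by sequencing and protein, so from RNA alone this cannot be told apart from an exchange of columns. Each direction given here rests on the labels. DU145 markers were present, with KRT8 at 336, 149 and 348 FPKM and VIM at 540.0, 545 and 605 FPKM. The prostate luminal genes KLK2, KLK3 and FOLH1 were listed at 0 in each column. Of 16 genes for blood, endothelial, stromal and other cells, 14 were under 1 FPKM in every column, with PTPRC, CD3E and HBB listed at 0. The summed level of these 16 genes was 40.0, 85.3 and 40.6 FPKM, most of it CD68, and its part in the results was not tested.

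In Scr cells the glycolytic genes were among the most abundant RNAs of the table. GAPDH, which makes the high-energy intermediate of the pathway, ranked number 4 of all genes at 2723 FPKM. ENO1 (enolase) ranked 16, PKM (pyruvate kinase) 19, ALDOA (aldolase) 22, LDHB 45 and LDHA 52. These 6 genes held 88.0% of the 9975 FPKM summed over the glycolysis list. HIF1A, at 255 FPKM, lay below these 6 genes and above PGK1, the next of the glycolysis list at 207 FPKM. The other HIF regulators went from 45.4 FPKM for EPAS1 down to 4.14 FPKM for EGLN3, near HK2 at 4.75 FPKM. SLC2A3 and ALDOC, isozymes with a more restricted expression, were at 0.882 and 0.952 FPKM, and CA9, a carbonic anhydrase used as a marker of hypoxia, was at 0.0333 FPKM. In the knockout columns CA9 was listed at 0, SLC2A3 was at 0.113 and 0.239 FPKM and ALDOC at 0.193 and 0.492 FPKM, all too low to compare.

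**Figure D1:**
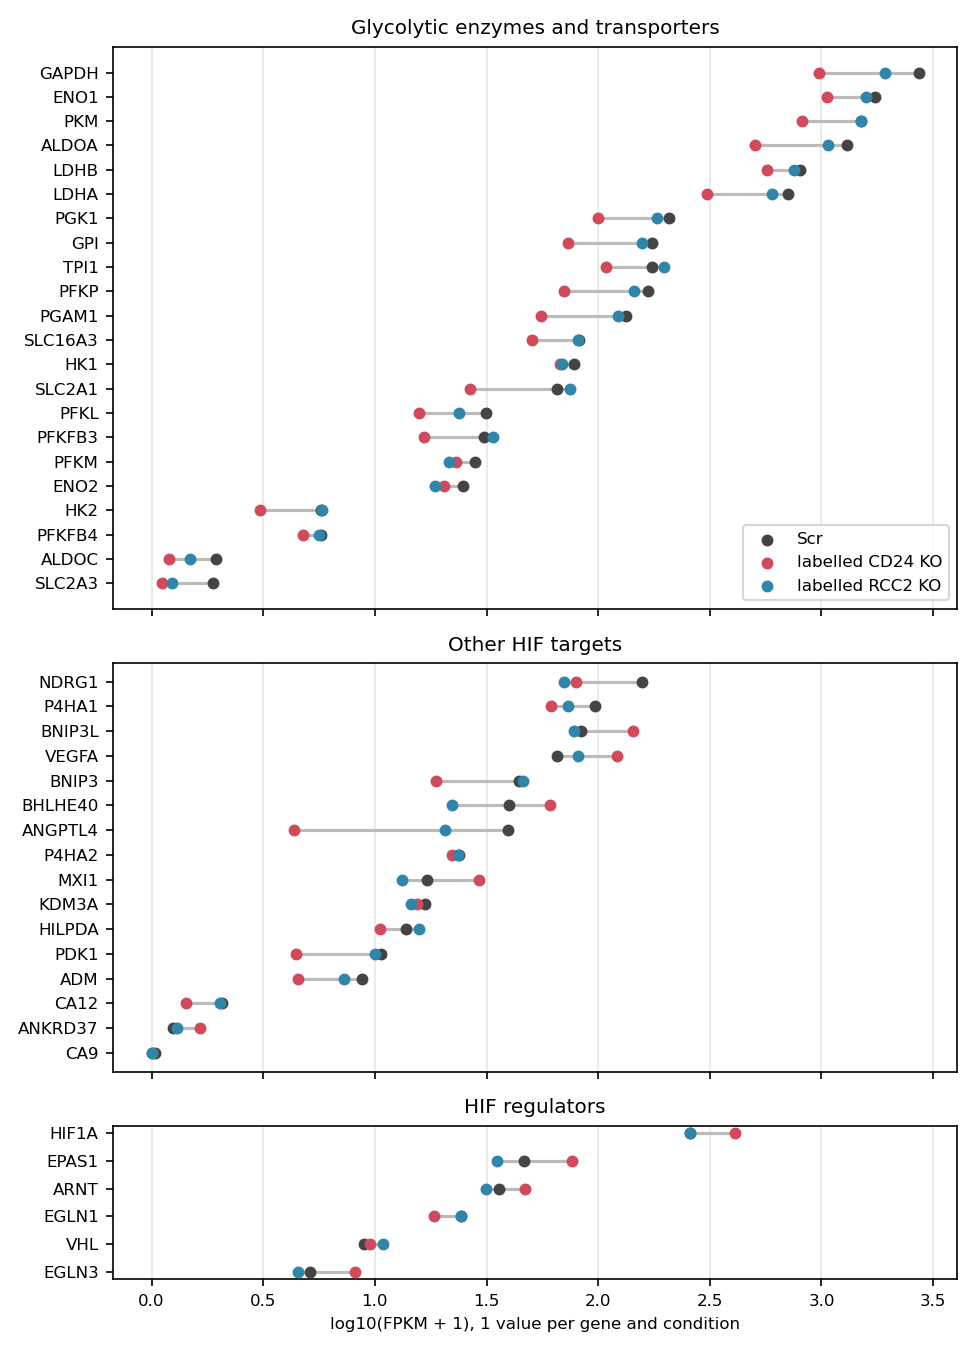
Level of each of the 44 members in the 3 columns, as log10 of FPKM plus 1, in panels for glycolysis, other HIF targets and HIF regulators. Each point is the authors' 1 value for a gene and condition, the gray line spans the 3 columns, and the red points of the libraries labelled CD24 KO lie at the left of nearly every glycolytic gene and at the right for HIF1A, EPAS1, ARNT and EGLN3.

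For changes, genes with at least 1 FPKM in at least 1 column were compared, 12822 genes in all, as differences of log2(FPKM + 1), on which a value of -1 or 1 is a 2-fold change and the change of low genes is understated. Of the members, 40 were compared, 20 of glycolysis, 14 other HIF targets and 6 regulators. SLC2A3, ALDOC, CA9 and ANKRD37 fell under the minimum. A gene at least 2-fold changed is counted as such without any statement about replicate error.

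All 20 glycolytic genes compared were lower in the libraries labelled CD24 KO than in Scr, by log2 differences from -0.21 to -1.49 and a median of -0.90. The median of all genes compared was -0.03, and 52.9% of them were lower. At least 2-fold lower were 8 of the 20, or 11 of the 40 members, against 3.03% of all genes compared. No member was at least 2-fold higher, against 2.67% of all genes. Summed FPKM of the 22 glycolytic genes was 9975, 4842 and 8548, which is 2.21%, 1.25% and 1.91% of each column. The column sums include RNR2, a mitochondrial ribosomal RNA, at 26884, 0 and 22704 FPKM. These shares, and the rescaling to the same sum below, therefore also carry that 1 RNA. The column labelled CD24 KO was the lowest of the 3 for 18 of the 20 genes, against 44.3% of all genes compared, and the exceptions were PFKM and ENO2. Rescaling each column to the same sum turned only HK1 of these 20 to the higher side, and under the other scalings all 20 stayed lower.

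At the entry of the pathway, SLC2A1 (GLUT1), the widely expressed glucose transporter, was at 64.3, 25.8 and 74.0 FPKM. Its log2 differences from Scr were -1.29 and 0.20, so the direction differed between the knockouts. HK2, the inducible hexokinase, was at 4.75, 2.06 and 4.79 FPKM in the same order, and HK1, the constitutive one, at 77.2, 66.6 and 67.7 FPKM. The hexokinase level thus rested on HK1, which was the member of the glycolysis list nearest to Scr in the libraries labelled CD24 KO, at -0.21. GPI, which turns glucose phosphate into fructose phosphate, was at 173, 72.0 and 157 FPKM, with a log2 difference of -1.26 for CD24 KO.

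The phosphofructokinase genes were unequal in the libraries labelled CD24 KO. PFKP, the platelet form and the main one in these cells, was at 167, 69.3 and 144 FPKM. PFKL, the liver form, was at 30.3, 14.7 and 22.9 FPKM. It lay just inside the 2-fold line with a log2 difference of -0.99, and was 2.06-fold lower by the plain ratio of FPKM. PFKM, the muscle form, was at 27.0, 22.2 and 20.5 FPKM, with -0.27. PFKFB3, which makes the allosteric activator of phosphofructokinase, was at 29.9, 15.6 and 32.7 FPKM and had a log2 difference of -0.89. Its relative PFKFB4 was at 4.71, 3.77 and 4.61 FPKM, near Scr in both knockouts.

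The middle of the pathway held the 2 genes with the lowest log2 differences of the list, GAPDH and ALDOA. ALDOA, which splits the 6-carbon sugar, was at 1305, 503 and 1065 FPKM, and GAPDH at 2723, 969 and 1927 FPKM. GAPDH had the lowest log2 difference of the glycolysis list for CD24 KO, -1.49, or 2.81-fold lower, and it was also the lowest of the list for RCC2 KO, at -0.50. GAPDH was also the reference gene for qPCR in the study's methods, where the RCC2 and AXIN2 qPCR shown was in LNCaP cells and not in these DU145 cells. TPI1, which interconverts the products of aldolase, was at 173, 107 and 197 FPKM. PGK1, the first enzyme of the pathway to make ATP, was at 207, 98.3 and 183 FPKM, and PGAM1, the mutase that follows it, at 133, 54.6 and 122 FPKM, with log2 differences of -1.06 and -1.26 for CD24 KO.

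At the lower end, ENO1 was at 1738, 1057 and 1581 FPKM and PKM at 1502, 817 and 1496 FPKM. Their log2 differences for CD24 KO were -0.72 and -0.88, short of 2-fold. ENO2, the neuronal enolase, was at 23.8, 19.4 and 17.5 FPKM and was lowest in the libraries labelled RCC2 KO. LDHA, which favors the formation of lactate, was at 710.4, 308 and 597 FPKM, and LDHB, which favors the reverse reaction, at 799, 566 and 753 FPKM. SLC16A3 (MCT4), the lactate exporter, was at 81.1, 49.7 and 80.5 FPKM.

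Within the steps that several genes serve, the makeup of the RNA differed in the libraries labelled CD24 KO. These shares are taken within a column, so multiplying a column by a factor does not change them. LDHA made up 47.1%, 35.2% and 44.2% of the summed lactate dehydrogenase FPKM in Scr, CD24 KO and RCC2 KO. PFKM made up 12.0%, 20.9% and 10.9% of phosphofructokinase, and PFKP 74.5%, 65.3% and 76.9%. HK2 was 5.80%, 3.01% and 6.60% of hexokinase. PFKFB4 was 13.6%, 19.4% and 12.4% of the sum with PFKFB3. For each of these 5 genes the share in the libraries labelled RCC2 KO lay closer to Scr than that in the libraries labelled CD24 KO. PFKL, at 13.5%, 13.9% and 12.2% of phosphofructokinase, and SLC2A1, at 98.6%, 99.6% and 99.7% of the sum with SLC2A3, lay farther from Scr in RCC2 KO, by small amounts. ALDOA was 99.9% of aldolase in Scr and ENO1 98.6% of enolase, so the aldolase and enolase steps rested on 1 gene.

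**Figure D2:**
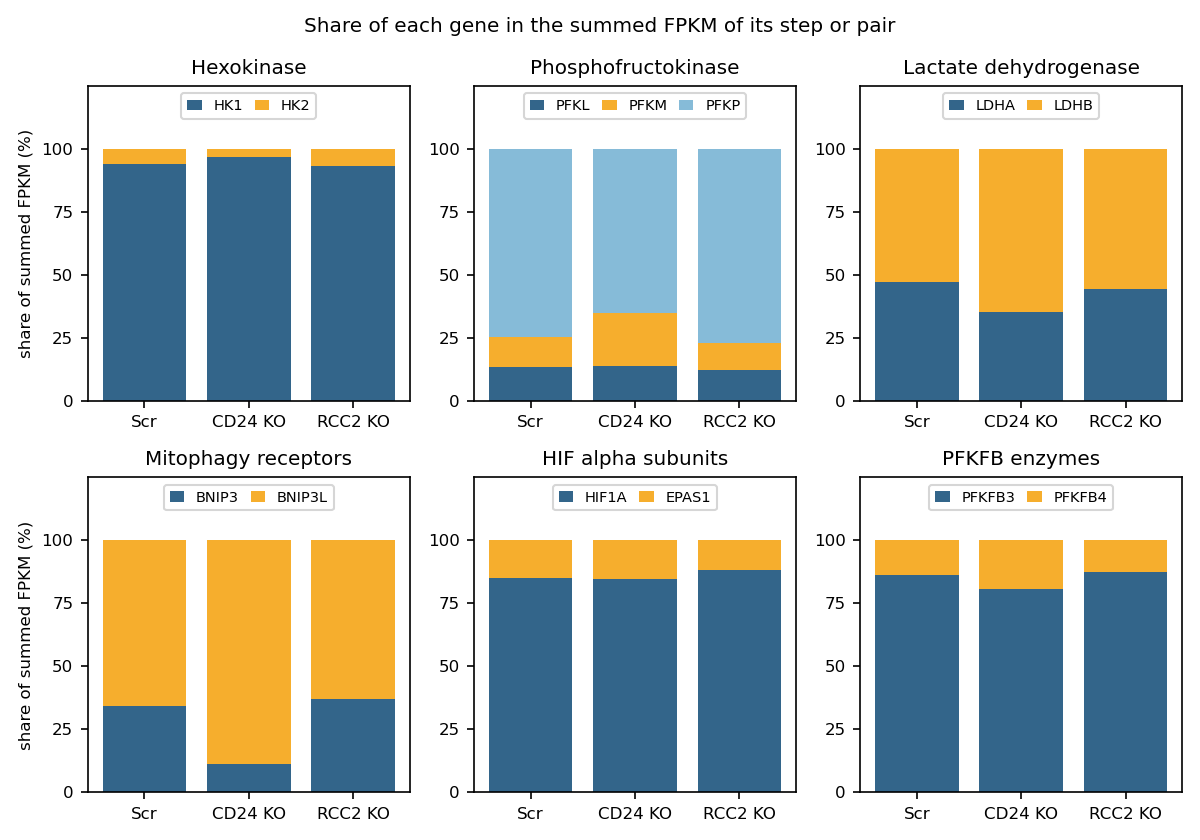
Share of each gene in the summed FPKM of its step or pair, in percent, for Scr and the columns labelled CD24 KO and RCC2 KO, with 1 value per bar segment and no error. The middle bars have less LDHA, HK2, PFKP and BNIP3 and more LDHB, PFKM and BNIP3L, while HIF1A and EPAS1 keep nearly the shares of Scr.

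The other HIF targets did not move as 1 group in the libraries labelled CD24 KO. Of 14 genes compared, 10 were lower and 4 higher, with a median log2 difference of -0.46 and a range from -3.19 to 0.90. ANGPTL4, a secreted inhibitor of lipoprotein lipase, was at 38.6, 3.33 and 19.6 FPKM. It was the most changed member, 11.6-fold lower for CD24 KO by the ratio of FPKM. PDK1, a kinase that inhibits pyruvate dehydrogenase, was at 9.65, 3.41 and 8.99 FPKM, with a log2 difference of -1.27. BNIP3, a mitophagy receptor, was at 43.4, 17.7 and 45.2 FPKM, with -1.25. These 3 genes were the only ones of the list at least 2-fold lower on the log2(FPKM + 1) scale.

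NDRG1 and ADM lay just inside the 2-fold line for CD24 KO, at -0.98 and -0.94. By the plain ratio of FPKM, NDRG1 was 1.98-fold and ADM 2.19-fold lower. NDRG1, a stress-responsive cytoplasmic protein, was at 156, 78.5 and 69.1 FPKM, and ADM, the vasodilator peptide adrenomedullin, at 7.72, 3.53 and 6.30 FPKM. P4HA1, the catalytic subunit of collagen prolyl hydroxylase, was at 96.3, 60.7 and 72.4 FPKM, while its relative P4HA2 was at 22.9, 21.1 and 22.5 FPKM. HILPDA, a lipid droplet protein, was at 12.8, 9.58 and 14.8 FPKM, and the histone demethylase KDM3A at 15.7, 14.4 and 13.5 FPKM. Among these genes only NDRG1 and ADM approached the 2-fold line. CA12, a membrane carbonic anhydrase, was at 1.07, 0.425 and 1.03 FPKM, where the pseudocount hides most of the difference.

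Of the 14 other HIF targets compared, 4 had their highest value in the libraries labelled CD24 KO. This is a smaller share than the 39.7% of all genes compared with their highest value there. VEGFA, the angiogenic growth factor, was at 64.1, 120.4 and 80.4 FPKM, a log2 difference of 0.90 for CD24 KO. BNIP3L (NIX), the other mitophagy receptor, was at 82.4, 142 and 77.0 FPKM, with 0.77. MXI1, an antagonist of MYC at its DNA sites, was at 16.1, 28.2 and 12.3 FPKM, with 0.77, and the transcriptional repressor BHLHE40 at 38.9, 60.1 and 21.1 FPKM, with 0.62. None of these was 2-fold higher as deposited, but 2 members were with quantile normalization (VEGFA and BNIP3L) and 2 with columns rescaled to the same sum (VEGFA and MXI1), beside 11 and 9 members at least 2-fold lower. The mitophagy receptors thus went opposite ways. BNIP3 made up 34.5%, 11.1% and 37.0% of the pair in the same order of columns. ANKRD37, under the minimum level, was at 0.246, 0.639 and 0.301 FPKM.

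The RNA of the HIF subunits was higher in the libraries labelled CD24 KO, in which the glycolytic genes were lower. HIF1A was at 255, 410.1 and 257 FPKM, EPAS1 at 45.4, 75.1 and 34.2 FPKM and ARNT at 34.9, 46.2 and 30.6 FPKM. Their log2 differences from Scr were 0.68, 0.71 and 0.39 for CD24 KO, so each was less than 2-fold higher. EGLN3, an oxygen sensor that HIF itself induces, was at 4.14, 7.16 and 3.53 FPKM, and EGLN1, the main sensor, at 23.2, 17.4 and 23.3 FPKM. EGLN3 was higher and EGLN1 lower, and EGLN3 made up 15.1% of their sum in Scr and 29.2% in the libraries labelled CD24 KO. VHL, the substrate receptor of the ligase, was at 7.96, 8.47 and 9.82 FPKM. Over the 6 regulators the median log2 difference was 0.53, with 5 higher and 1 lower against 47.0% of all genes higher, a median that stayed above 0 under each scaling. HIF protein was not measured in these files.

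**Figure D3:**
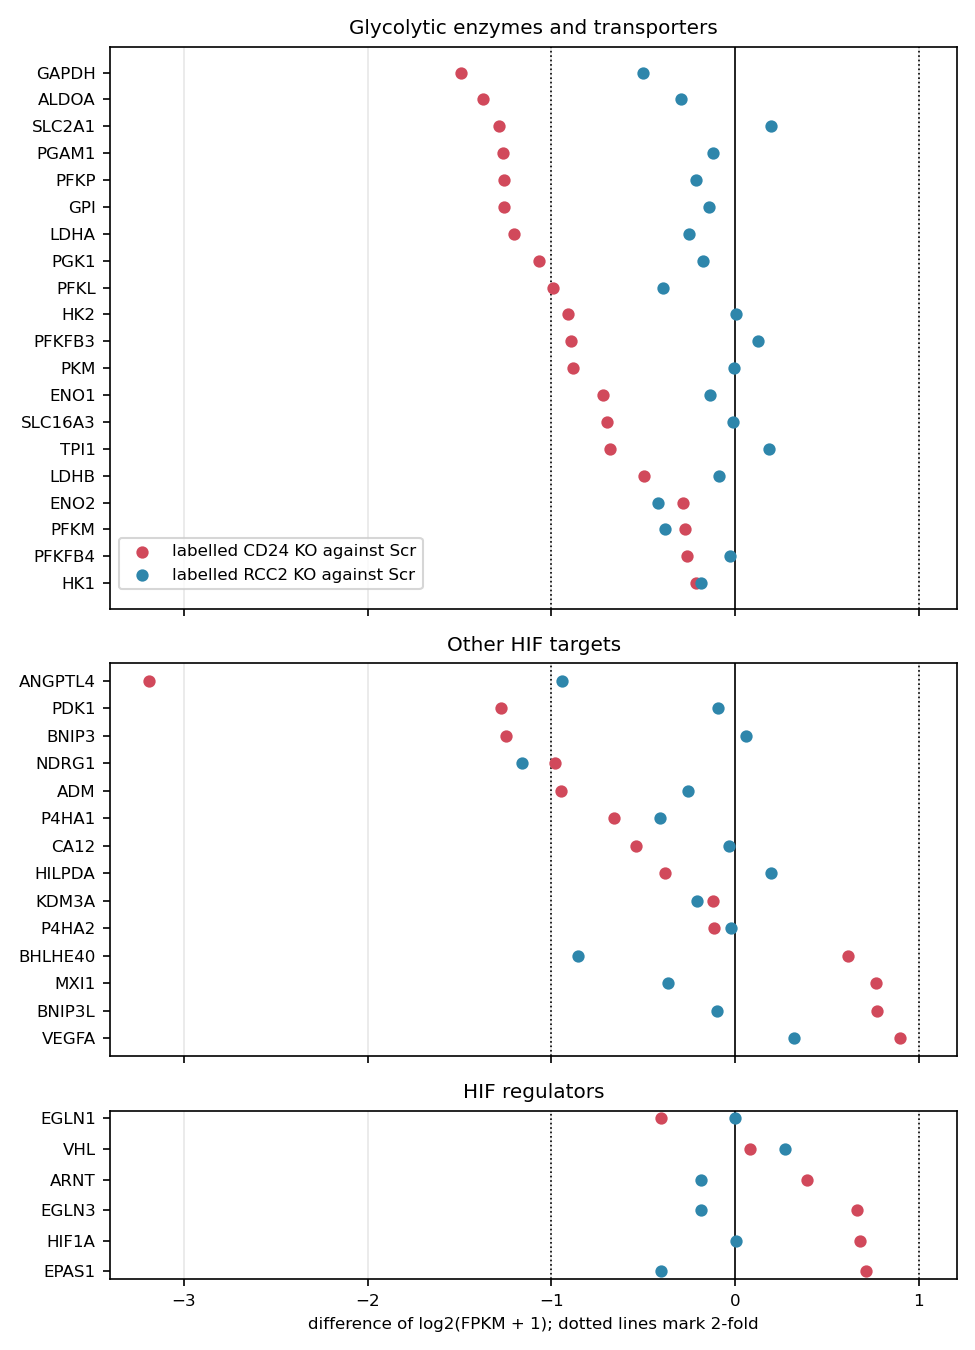
Difference of log2(FPKM + 1) from Scr for the 40 members compared, in red for the libraries labelled CD24 KO and in blue for those labelled RCC2 KO, with dotted lines at 2-fold. The 20 red points of glycolysis lie left of 0, those of the other HIF targets spread from -3.19 to 0.90, and 5 of 6 regulators lie right of 0, while of the blue points only NDRG1 lies past a dotted line.

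In the libraries labelled RCC2 KO the members stayed close to Scr. The median log2 difference was -0.14 for the 20 glycolytic genes, -0.15 for the 14 other HIF targets and -0.09 for the 6 regulators, against -0.00 for all genes compared. Of the 40 members, 1 was at least 2-fold lower and 0 at least 2-fold higher, against 0.796% and 0.406% of all genes. The 1 gene was NDRG1, 2.25-fold lower, with a log2 difference of -1.16. ANGPTL4 and BHLHE40 followed at -0.94 and -0.85, and the next of the members compared was GAPDH at -0.50. Glycolytic genes were lower in 16 and higher in 4 cases, against 50.6% of all genes lower, the 4 being SLC2A1, HK2, PFKFB3 and TPI1. Differences this small changed sign with the scaling, as those of PFKFB4, SLC16A3, PKM, HK2, CA12, HIF1A and EGLN1 did under at least 1 scaling.

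Both comparisons with Scr use the same Scr values, so the members are set side by side here without a measure of likeness. NDRG1 was lower in both knockouts, at -0.98 and -1.16, and ANGPTL4 at -3.19 and -0.94. BHLHE40 was higher in the libraries labelled CD24 KO and lower in those labelled RCC2 KO, at 0.62 and -0.85. MXI1 and EPAS1 had the same pattern, at 0.77 and -0.37 and at 0.71 and -0.40. VEGFA was higher in both, at 0.90 and 0.32.

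A direct comparison of the libraries labelled RCC2 KO with those labelled CD24 KO leaves Scr out. Of the 40 members, 9 were at least 2-fold higher and 3 at least 2-fold lower in RCC2 KO, against 4.02% and 4.3% of all genes compared. Higher were ANGPTL4 (2.25), SLC2A1 (1.49), BNIP3 (1.30), PDK1 (1.18), PGAM1 (1.15), GPI (1.11), ALDOA (1.08), PFKP (1.05) and PFKFB3 (1.02), with the log2 difference in parentheses. The lower genes were BHLHE40 (-1.47), MXI1 (-1.14) and EPAS1 (-1.11). The median log2 difference was 0.88 for glycolysis, 0.17 for the other HIF targets and -0.63 for the regulators. The CD24 KO column is used again here. The values of the 9 higher genes and the glycolysis median largely restate the comparison of CD24 KO with Scr with the sign turned. The 3 lower genes also lay below Scr in RCC2 KO, BHLHE40 at -0.85, MXI1 at -0.37 and EPAS1 at -0.40. For BHLHE40 this was more than its 0.62 for CD24 KO against Scr. The count of 9 depended on the scaling of the columns and was 4 when each column was rescaled to the same sum, the 5 genes no longer past 2-fold being GPI, PFKP, PFKFB3, ALDOA and PGAM1. With that rescaling the median of all genes moved to -0.17 and that of the other HIF targets to -0.03.

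Abundant RNAs as a class were also lower in the libraries labelled CD24 KO, and many of the glycolytic genes belong to that class. Among 704 genes with a mean of at least 100 FPKM, the median log2 difference for CD24 KO was -0.25, and 8.24% were at least 2-fold lower. Among the 78 genes with a mean of at least 500 FPKM the median was -0.22, and 14.1% were at least 2-fold lower. Taken relative to genes of like level, an alternative added after the data had been seen, the glycolysis median was -0.82, with 20 of 20 lower and 8 at least 2-fold lower. RNR2, the mitochondrial ribosomal RNA, was at 26884 and 22704 FPKM in Scr and RCC2 KO but listed at 0 for CD24 KO, and its part in the level of the other genes of that column was not tested.

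**Figure D4:**
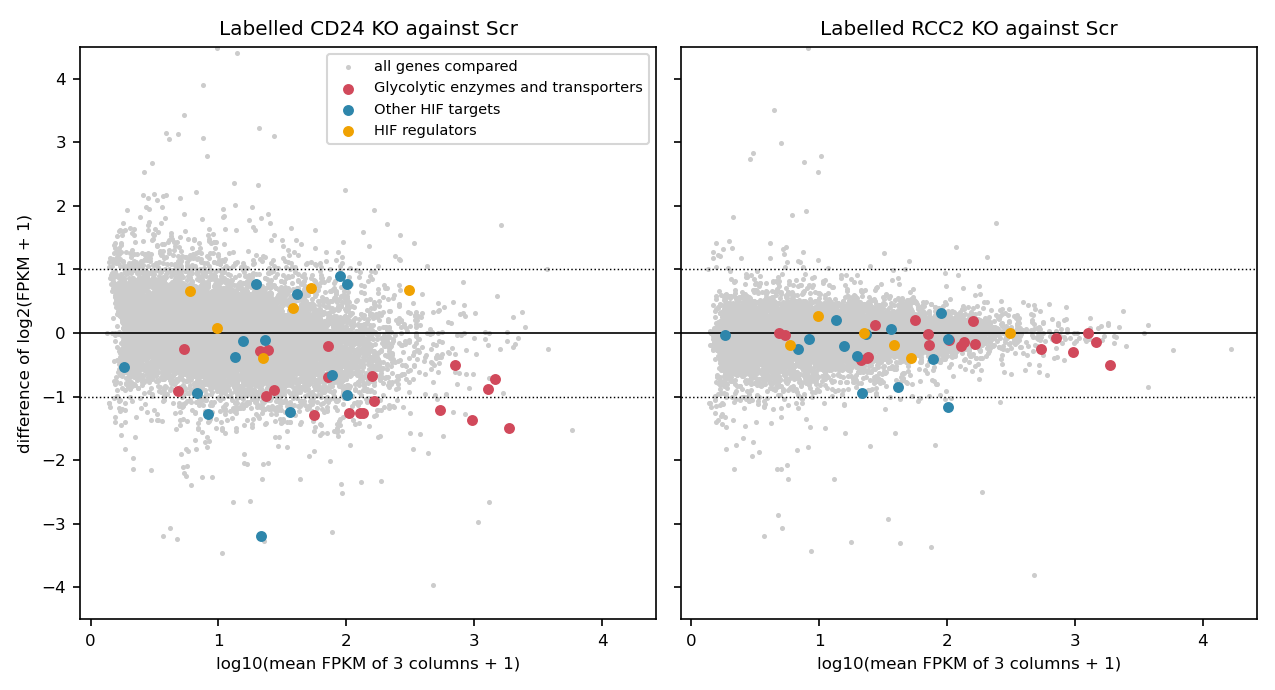
Difference of log2(FPKM + 1) from Scr against log10 of the mean FPKM plus 1 for all 12822 genes compared (gray) and the 40 members (colored by list). At left, for the libraries labelled CD24 KO, all 20 glycolytic genes lie below 0, and at right, for RCC2 KO, none lies past 2-fold, with 17 and 16 genes outside the plotted range.

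Genes of dividing cells were also lower in the libraries labelled CD24 KO. Of 20 proliferation genes, 11 were at least 2-fold lower there, against 3.03% of all genes compared. Their median log2 difference was -1.04, and all 20 were lower, against 52.9% of all genes. Their summed level was 1729, 861 and 1813 FPKM. RRM2, which makes deoxynucleotides, was at 138, 40.1 and 141 FPKM, and MCM3, a subunit of the replicative helicase, at 109.6, 39.6 and 114.5 FPKM. The part of cell division in the level of the glycolytic genes was not tested.

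Other genes of the same pathways were taken from further lists of textbook members. Of 20 further glycolytic isozymes, transporters and side enzymes, 11 were compared. For CD24 KO 1 of them (9.09%, against 3.03% of all genes compared) was at least 2-fold lower. It was ENO3 (muscle enolase), at 5.91, 1.52 and 4.62 FPKM. The median of the 11 was 0.13, with 6 higher and 5 lower. SLC16A1 (MCT1), the lactate transporter that also imports, was at 53.1, 51.5 and 54.5 FPKM. SLC2A4 (GLUT4) was the only gene of this list past 2-fold for RCC2 KO, at 2.23, 2.18 and 0.567 FPKM. Of all genes compared, 0.796% were at least 2-fold lower for RCC2 KO.

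Among 35 further HIF target symbols, 34 were in the table and 27 were compared. For CD24 KO 4 were at least 2-fold lower and 1 higher (14.8% and 3.70%, against 3.03% and 2.67% of all genes compared), with a median log2 difference of -0.18, and for RCC2 KO none was past 2-fold in either direction. IGFBP3, which binds insulin-like growth factors, was at 133, 14.3 and 79.7 FPKM. PLOD2, a collagen lysyl hydroxylase, was at 658, 177 and 468 FPKM, and HMOX1, heme oxygenase, at 88.7, 32.3 and 64.6 FPKM. CXCR4, a chemokine receptor, was the 1 gene higher, at 0.622, 3.97 and 0.819 FPKM. IGFBP3 and PLOD2 had log2 differences of -3.13 and -1.89 for CD24 KO and, like ANGPTL4, intermediate levels in the libraries labelled RCC2 KO. TFRC, the transferrin receptor, was the other lower gene, at 169, 79.4 and 186 FPKM, and lay above Scr in RCC2 KO.

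Of 17 further symbols for HIF regulators, 15 were in the table and 14 were compared. For CD24 KO their median log2 difference was -0.13, with 9 lower and 5 higher, whereas the median of the 6 main regulators was above 0. RBX1, a subunit of the VHL ligase complex, was at 38.2, 19.2 and 33.4 FPKM, and the chaperone HSP90AB1 at 1093, 601 and 1035 FPKM, the lowest log2 differences of the list at -0.95 and -0.86. CITED2, which HIF induces and which competes with HIF for its coactivators, was the only one past 2-fold, at 62.6, 171 and 46.9 FPKM. Its log2 difference for CD24 KO was 1.44. This 1 gene is 7.14% of the 14, against 2.67% of all genes compared that were at least 2-fold higher. The coactivators EP300 and CREBBP were at 12.9, 11.5 and 13.6 FPKM and at 11.6, 8.45 and 13.5 FPKM. The asparaginyl hydroxylase HIF1AN was at 12.6, 11.6 and 14.5 FPKM. Apart from CITED2, these partners of HIF lay within 2-fold of Scr.

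Copies of a gene limit some of these values. GENCODE 29 names 62 pseudogenes of GAPDH, 39 of BNIP3, 13 of PGAM1, 6 of LDHA, 5 of PKM and 4 each of ENO1 and TPI1, and fragments could have been divided between a gene and its copies. Only 2 of the TPI1 copies and 1 of the PGAM1 copies are in the table, at a sum of at most 3.33 FPKM. PFKM shares its position with SENP1 at 32.5, 23.4 and 33.2 FPKM, TPI1 with SPSB2 and ANKRD37 with UFSP2, which makes the values of PFKM and ANKRD37 less certain. In the coordinates of the table, read as hg19, GAPDH lies on chromosome 12 from 6643571 to 6647541, SLC2A1 on chromosome 1 from 43391046 to 43449029 and ANGPTL4 on chromosome 19 from 8429011 to 8439259. HIF1A lies on chromosome 14 from 62147759 to 62217815.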

How the data were processed

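RNA-Seq of DU145 cells was deposited as 1 table of FPKM, made by the authors, with 3 columns for 6 libraries (2 each of Scr, CD24 KO and RCC2 KO per the labels). HISAT, StringTie, Cufflinks and GATK are named in the submitters' processing notes without role or version, and the library kit is stranded in the study's methods but given without strand in the labels. The genome build is not given in the sources used here. Of 44 members, 8 overlapped their GRCh38 position in GENCODE 29 (15.8% of all symbols found once), so coordinates were read as hg19, with starts written from 1.

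The deposited FPKM values were compared as log2(FPKM + 1) over genes with at least 1 FPKM in at least 1 column. A change of at least 2-fold took the place of a test, since 1 value per condition allows no SD or p-value. The depth is unknown. Ratios of values under 0.3 FPKM gave no common step, the most frequent one, between RCC2 KO and Scr, being shared by 2.64% of 2277 genes. All 44 members were to be named, with at most 4 genes past 2-fold from each further list. SLC16A1, SLC2A4, HIF1AN, EP300, CREBBP, RBX1, HSP90AB1, TFRC, PDK2, PDK3, PDK4, PGD, MDH2, VIM and RNR2, and the marker genes listed at 0, fell outside this rule and were chosen after their values had been seen. Some genes of the further lists are not reported here. Members and lists were chosen with earlier results of these data known. The calculation was tested on simulated data made from the Scr column.

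Alternatives were no filter, at least 1 FPKM in every column, pseudocounts of 0.1 and 5, quantile normalization, median centring, columns rescaled to a sum of 1000000, upper quartile scaling and a 1.5-fold minimum. Change relative to genes of like level (20 bins) was added after the data had been seen. A median was taken as moved when it changed by at least 0.1 and by over 1.5 times, and a count when it changed by over 1.5 times. Promoter sequences came from RefSeq (GRCh38.p14). Python 3.11.15, NumPy 2.4.6, pandas 2.3.3 and matplotlib 3.10.9 were used.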

Additional observations from a re-analysis of the deposited data

How the results depend on the processing

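No paired analysis was possible because the table holds 1 column per condition, and for the same reason leaving out a replicate in turn was not run. Under the alternatives tried, the glycolysis median for CD24 KO against Scr kept its sign and lay between -0.76 and -0.98, and none of the members past 2-fold changed direction in any comparison. Of 141 values recomputed for the list medians and the counts of members, 120 stayed within the limits, 20 moved and 1 changed sign. The median of the other HIF targets for CD24 KO against Scr was -0.25 with no filter, where 16 genes entered, and -0.22 with a pseudocount of 5. Between RCC2 KO and CD24 KO it was 0.0452 with no filter, 0.0155 with quantile normalization, 0.0363 with upper quartile scaling, 0.0125 relative to genes of like level and -0.0262 with columns rescaled to the same sum, so its sign is not settled. With a pseudocount of 0.1, the members at least 2-fold lower for CD24 KO numbered 15 in place of 11, and HK2, PFKL, CA12 and ADM were the additions. Members at least 2-fold higher for CD24 KO numbered 2 with quantile normalization, 2 with the rescaled sum, 1 with upper quartile scaling and 1 relative to genes of like level. Between RCC2 KO and CD24 KO, the members at least 2-fold higher in the former numbered 5 with quantile normalization, 4 with the rescaled sum, 5 with upper quartile scaling and 5 relative to genes of like level, and with the rescaled sum 5 were lower. At a 1.5-fold minimum, 21 members were lower and 7 higher for CD24 KO, and 3 lower for RCC2 KO. Between RCC2 KO and CD24 KO, 6 were lower and 18 higher at that minimum. The share of all genes past 1.5-fold was not computed, so these counts cannot be read as a result about the members. The cause of the shifts under the alternatives was not tested beyond the wider minimum and the added genes. The rescaled sum moved the median of all genes from -0.03 to 0.16 for CD24 KO against Scr. Low values limit CA9, CA12, SLC2A3, ALDOC and ANKRD37, and without counts the limit cannot be given in fragments.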

Other observations

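The routes that branch from glycolysis had medians near 0 in the libraries labelled CD24 KO. Of 7 genes of the pentose phosphate pathway, which draws glucose phosphate into NADPH and ribose, none was past 2-fold, and the median log2 difference was -0.03. The 7 differences went from -0.45 to 0.43, with 4 lower and 3 higher, against 52.9% of all genes compared lower. The highest was that of PGD, a dehydrogenase of the pathway, at 77.8, 105 and 72.9 FPKM in Scr, CD24 KO and RCC2 KO. The 8 genes of glycogen metabolism had a median of -0.06, with none past 2-fold.

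Pyruvate oxidation and the TCA cycle, measured by 30 genes, had a median log2 difference from Scr of -0.17 for the first knockout, CD24, and -0.03 for the second, RCC2. The lowest was MDH2, the mitochondrial malate dehydrogenase, at 297, 162 and 273 FPKM, which was chosen after its values had been seen. The only gene past 2-fold from Scr was PDP1, the phosphatase that reverses the action of PDK1 on pyruvate dehydrogenase, at 12.2, 28.3 and 12.4 FPKM. This 1 gene is 3.33% of the 30, near the 2.67% of all genes compared that were at least 2-fold higher for CD24 KO. PDK1 was at 9.65, 3.41 and 8.99 FPKM. The other kinases of the complex did not share the level of PDK1, with PDK2 at 15.5, 17.3 and 12.6 FPKM, PDK3 at 3.93, 3.73 and 3.70 FPKM and PDK4 at 4.45, 3.35 and 2.90 FPKM. Activity of the complex was not measured, and none of these differences has a replicate check.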
